A study of Triticum aestivum with 4 samples.

Results

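Wheat seeds hold several families of proteins that block amylases, proteases or xylanases, among them enzymes of insects and fungi, and the transcripts of 5 such genes were compared between the bread wheat genotypes AC Domain and RL4452. The genes were the alpha-amylase/trypsin inhibitor gene LOC543286 (synonym ATI), the monomeric alpha-amylase inhibitor gene LOC542981 (WMAI-1, wmai-0.28), the xylanase inhibitor gene LOC542997 (XIP-I), and the serpin genes LOC100037548 (WSZ1b) and LOC542985 (WSZ1c). They were chosen by gene identifier in the annotation of the array, and XIP-I also by synonym. They are 5 of the 771 genes that have a name here, and 9 of the 61115 wheat probe sets read them. Probe sets without a gene were to be added where they share the transcript cluster of a member, the number after Ta. in the probe set name, and there were 0 of these.

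Both genotypes are parents of a mapping population and were grown in the field together with its lines. Developing seed was taken 5 days after anthesis from tagged spikes. Each genotype had 2 biological replicates with 1 Affymetrix wheat array each, hybridised with RNA enriched for poly(A). The labels name no plot for a replicate, so that the p-values rest on the spread between these samples. For each probe set, limma moderated that spread with the spread of all wheat probe sets. Whole seed was ground, and fewer cells of a type and less RNA per cell cannot be told apart.

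Alpha-amylase/trypsin inhibitors are small, cysteine-rich proteins of the prolamin superfamily that accumulate in the starchy endosperm. Some block the alpha-amylases of insects and mammals, some block trypsin, and as a group they are known as wheat allergens of baker's asthma. XIP-I blocks fungal xylanases, which break down arabinoxylan in the cell wall, and is itself related to chitinases. Serpins trap serine proteases with an exposed loop that the protease cleaves, and the WSZ proteins are serpins of the grain. Serpins are protease inhibitors and block neither amylase nor xylanase.

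XIP-I had the higher intensity in RL4452 on both of its probe sets, and ATI the lower one on 2 of its 3 probe sets, but neither gene passed the test over all probe sets. The estimates were 1.70-fold and 1.497-fold for XIP-I and 2.55-fold and 1.72-fold for ATI. WMAI-1 and the serpins differed by at most 0.22 on the log2 scale in either direction. Among the 9 probe sets, 0 passed the threshold of limma (a Benjamini-Hochberg adjusted p under 0.05 over all wheat probe sets), against a background of 0.800% of all wheat probe sets. At an unadjusted p under 0.05, limma gave 4 of the 9, against 9.16% of all wheat probe sets. Both XIP-I probe sets among the 4 lay higher in RL4452 (background 3.74%) and both ATI probe sets lower (background 5.42%). Counts with 1 array left out are not set beside these shares, as 1 genotype then had 1 array. The 4 probe sets belong to 2 genes, which were selected with earlier results of these arrays known. The median difference of the 9 was -0.02 on the log2 scale, and it was 0.05 over all wheat probe sets. Differences are RL4452 minus AC Domain throughout, and with 2 arrays against 2 an exact permutation test of a single value cannot give a p below 0.333.

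**Figure D1:**
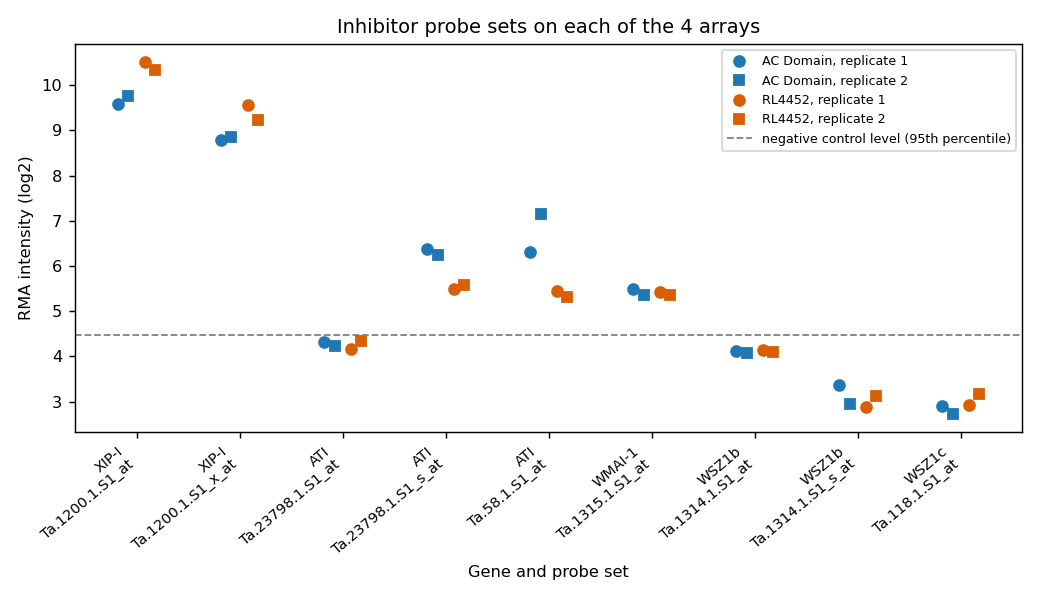
RMA intensity on the log2 scale (vertical axis) of the 9 inhibitor probe sets, by gene and probe set (horizontal axis). Each point is 1 array, blue for AC Domain and orange for RL4452, round for replicate 1 and square for replicate 2; the dashed line is the negative control level of 4.48. The orange points lie above the blue ones in both XIP-I probe sets and below them in 2 ATI probe sets, while 4 probe sets lie below the line on every array.

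A level of background was set by 23 negative control probe sets, with a 95th percentile of 4.48 in log2 intensity (22.3 on the linear scale). Of the 9 probe sets, 5 lay above it on all 4 arrays and 4 lay below it on all 4. Control probe sets for reporter genes, which are not native to wheat, numbered 64. Among them 1, with a mean of 13.45 on the log2 scale, was left out of the counts that follow for its high signal. Of the other 63, 10 had a mean above 4.48 and 5 a mean above 5.3, and the highest mean was 6.29. Levels of the wheat probe sets were set against these controls but not against each other, because each probe set binds its target with its own strength.

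For the xylanase inhibitor XIP-I, the probe set Ta.1200.1.S1_at read 763 and 867 (linear intensity) in AC Domain and 1469 and 1297 in RL4452. Both RL4452 arrays lay above both AC Domain arrays, and the replicates of a genotype lay close together. On the log2 scale AC Domain averaged 9.67 ± 0.13 and RL4452 10.43 ± 0.13 (SD, n = 2). The difference was 0.76 with a standard error of 0.18 and a 95% interval from 0.31 to 1.22 (limma, unadjusted p = 0.00767, adjusted p = 0.250). The interval corresponds to 1.24-fold to 2.33-fold. Over the 10 other ways of processing, the adjusted p of limma ran from 0.148 to 1.00.

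The second XIP-I probe set, Ta.1200.1.S1_x_at, comes from the same transcript sequence, and its suffix marks probes that may also bind other transcripts. Its intensities were 443 and 462 in AC Domain and 759 and 604 in RL4452, again without overlap. The difference was 0.58 with a standard error of 0.19 and a 95% interval from 0.09 to 1.07 on the log2 scale (limma, unadjusted p = 0.0279, adjusted p = 0.453). The 2 probe sets may share probes, and they are not separate measurements of the gene.

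The run files of the instrument put the replicate 1 arrays of both genotypes in 1 project and the replicate 2 arrays in another. Between the replicate 1 arrays XIP-I differed by 0.94 and 0.78 on the log2 scale, in the order of the probe sets above. Between the replicate 2 arrays it differed by 0.58 and 0.39. XIP-I thus had the higher value in RL4452 within each project, and the estimate was larger in that of replicate 1. In all, 24.0% of wheat probe sets had both RL4452 arrays above both AC Domain arrays, as the XIP-I probe sets did. A difference of 0.76 or more in either direction was measured in 5.95% of wheat probe sets, and one of 0.58 or more in 9.90%.

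For ATI, the probe set Ta.58.1.S1_at read 78.8 and 143 (linear intensity) in AC Domain and 43.3 and 39.9 in RL4452. Both RL4452 arrays lay below both AC Domain arrays, and the AC Domain arrays lay far apart. On the log2 scale the means were 6.73 ± 0.61 in AC Domain and 5.38 ± 0.08 in RL4452 (SD, n = 2). The difference was -1.35 with a standard error of 0.32 and a 95% interval from -2.17 to -0.54 (limma, unadjusted p = 0.00804, adjusted p = 0.255). It was -0.86 between the replicate 1 arrays and -1.84 between the replicate 2 arrays, so that its size depended on the AC Domain array of replicate 2. Without that array the difference was -0.92, and without AC Domain replicate 1 it was -1.78. Over the 10 other ways of processing, the adjusted p of limma ran from 0.180 to 1.00.

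The probe set Ta.23798.1.S1_s_at of the same gene gave tighter replicates. Its suffix marks probes shared by more than 1 transcript, so that it may read several similar inhibitor transcripts together. The intensities were 82.7 and 75.7 in AC Domain and 44.7 and 47.6 in RL4452, without overlap. On the log2 scale the means were 6.31 ± 0.09 in AC Domain and 5.53 ± 0.06 in RL4452 (SD, n = 2). The difference was -0.78 with a standard error of 0.16 and a 95% interval from -1.20 to -0.36 (limma, unadjusted p = 0.00526, adjusted p = 0.208). It was -0.89 between the replicate 1 arrays and -0.67 between the replicate 2 arrays.

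The remaining ATI probe set, Ta.23798.1.S1_at, lay below the negative control level on all 4 arrays. Its log2 values were 4.31 and 4.23 in AC Domain and 4.16 and 4.33 in RL4452. The genotypes overlapped, and the difference was -0.02 with a 95% interval from -0.45 to 0.41 (limma, adjusted p = 0.986). Although Ta.23798.1.S1_at and Ta.23798.1.S1_s_at carry the same cluster number, the former had no signal above background from which a genotype difference could be read.

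Both ATI probe sets that differed had RL4452 means (5.38 and 5.53) above the highest negative control value of 4.93, but below the highest of the 63 reporter controls counted above (6.29). With 16 added to each intensity, which shrinks the differences of dim probe sets, they had -1.09 and -0.61. In all, 15.9% of wheat probe sets had both RL4452 arrays below both AC Domain arrays, as these did. A difference as large as that of Ta.58.1.S1_at, in either direction, was measured in 2.22% of wheat probe sets, and one as large as that of Ta.23798.1.S1_s_at in 5.73%.

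**Figure D2:**
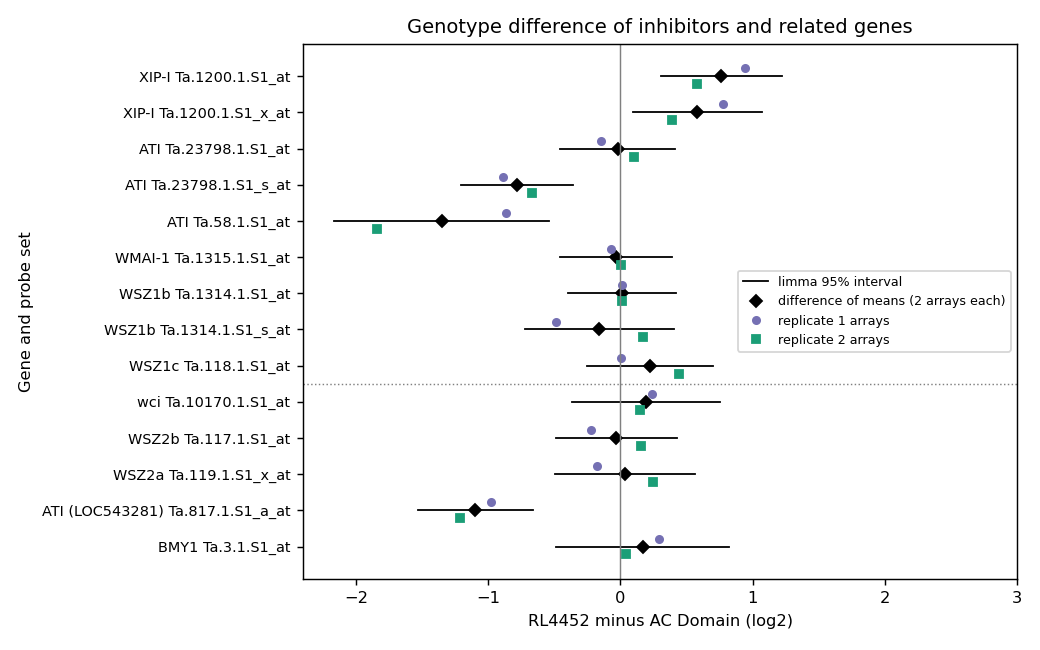
Difference between genotypes in log2 intensity (horizontal axis, RL4452 minus AC Domain) for the inhibitor probe sets above the dotted line and for related inhibitors and beta-amylase below it. The gene wci is among the related inhibitors by its symbol alone. Diamonds are differences of means over 2 arrays each with the 95% interval of limma as a line, and circles and squares are the differences between the replicate 1 arrays and between the replicate 2 arrays. The intervals of both XIP-I probe sets lie above 0, those of 2 ATI probe sets of LOC543286 and of the ATI probe set of LOC543281 lie below 0, and the others include 0; none of these intervals is adjusted for the number of probe sets.

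WMAI-1 encodes an inhibitor of insect alpha-amylases that acts as a monomer. Its probe set Ta.1315.1.S1_at had intensities of 44.8 and 40.8 in AC Domain and 42.7 and 41.0 in RL4452. All 4 arrays lay above the negative control level, within the range of these 63 reporter controls, and the genotypes overlapped. The difference was -0.03 on the log2 scale with a 95% interval from -0.45 to 0.39 (limma, adjusted p = 0.976).

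The serpins gave no signal above background. For WSZ1b, Ta.1314.1.S1_at lay between 4.08 and 4.14 on the log2 scale on all arrays, and Ta.1314.1.S1_s_at between 2.87 and 3.36. For WSZ1c, Ta.118.1.S1_at lay between 2.72 and 3.16. All these values are below the negative control level of 4.48. The differences were 0.014, -0.16 and 0.22 (limma, adjusted p = 0.992, 0.872 and 0.773). The first of these was below 0 after median centring (-0.046) and after quantile normalization (-0.076). The RL4452 arrays of WSZ1c lay above its AC Domain arrays by 0.0031 on the log2 scale. Including it, 5 of the 9 inhibitor probe sets had arrays that did not overlap between genotypes, against 39.9% of all wheat probe sets.

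Of the 9 probe sets, 4 were higher in RL4452 and 5 lower, and of all wheat probe sets 58.4% were higher. The 4 with an unadjusted p under 0.05 thus point both ways, with XIP-I higher and ATI lower in the same seed samples.

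**Figure D3:**
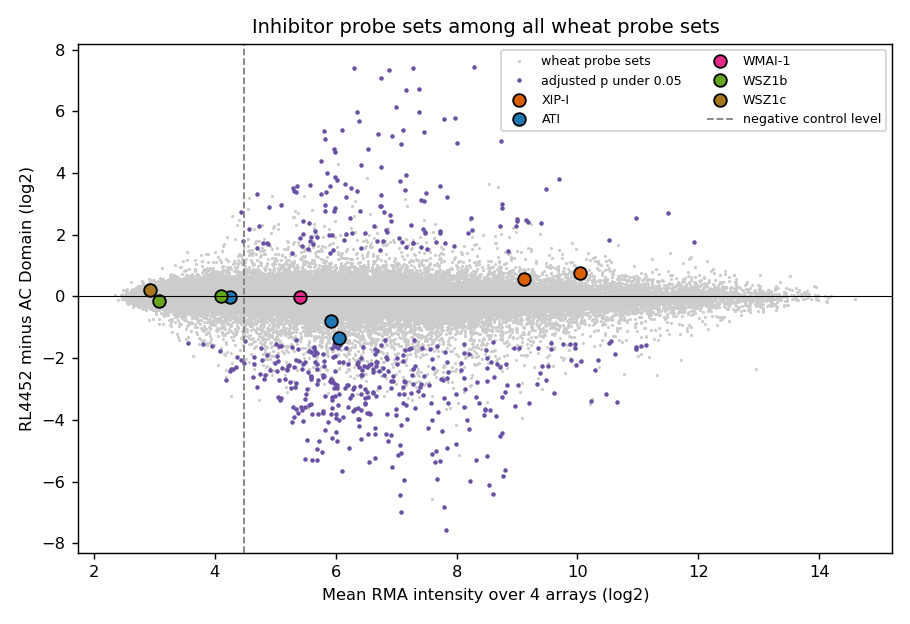
Genotype difference in log2 intensity (vertical axis, RL4452 minus AC Domain) against the mean log2 RMA intensity over the 4 arrays (horizontal axis) for 61115 wheat probe sets, in grey. The 489 probe sets with an adjusted p under 0.05 are purple, the inhibitors are large coloured points by gene, and the dashed line is the negative control level of 4.48. The XIP-I points lie at the upper side and 2 ATI points at the lower side of the grey cloud, and 0 inhibitor probe sets are among those past the threshold.

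The list of related inhibitors found 4 probe sets of 4 other genes. A second gene with the synonym ATI, LOC543281, was added to it after the annotation had been seen. Its probe set Ta.817.1.S1_a_at had intensities of 40.4 and 46.1 in AC Domain and 20.6 and 19.8 in RL4452, and both RL4452 arrays were below the negative control level. The log2 means were 5.43 ± 0.13 in AC Domain and 4.34 ± 0.04 in RL4452 (SD, n = 2), with a difference of -1.10 (limma, adjusted p = 0.0994). The mean of AC Domain was 1.94-fold the negative control level, which is an estimate and not a lower bound. The 95% interval of limma for the genotype difference ran from -1.53 to -0.66, which corresponds to 1.58-fold to 2.89-fold. Like ATI of LOC543286, LOC543281 had the lower value in RL4452 between the replicate 1 arrays (-0.98) and between the replicate 2 arrays (-1.22). How far probes of LOC543281 and LOC543286 bind transcripts of the other gene was not tested.

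The serpin genes WSZ2b (LOC543382) and WSZ2a (LOC543376) lay below the negative control level on all arrays, as WSZ1b and WSZ1c did. Their differences were -0.03 and 0.04 (limma, adjusted p = 0.979 and 0.980), and that of WSZ2a was below 0 after median centring (-0.024) and quantile normalization (-0.039). The gene wci (LOC542996) was in the list by its symbol alone, and what it encodes is not settled here. Its difference was 0.19 (limma, adjusted p = 0.837). Of these 4 probe sets, 0 passed the threshold with limma, against 0.800% of all wheat probe sets. An unadjusted p under 0.05 with limma was given for 1, that of the added LOC543281, against 9.16% of all wheat probe sets. The list of amylases, xylanases and proteases found 1 gene, BMY1 (LOC543318). It encodes a beta-amylase, which releases maltose from starch and is distinct from the alpha-amylases that ATI proteins block. Its intensities were 6141 and 4973 in AC Domain and 7524 and 5127 in RL4452, which overlapped. Its difference was 0.17 with a 95% interval from -0.49 to 0.82 (limma, adjusted p = 0.888), and it was -0.11 without RL4452 replicate 1.

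The named genes with the most similar pattern over the 4 arrays were found by the root mean square distance between log2 values, each centred on its own mean, among 998 probe sets with a mean above the negative control level. For the XIP-I probe set Ta.1200.1.S1_at, the nearest were LOC543103 (0.077), LOC543100 (0.098) and LOC100125715 (0.11), and 27 probe sets lay within 0.2. These 3 were higher in RL4452 by 0.78, 0.71 and 0.91 on the log2 scale (limma, adjusted p = 0.240, 0.239 and 0.170). For the ATI probe set Ta.58.1.S1_at, the nearest were LOC542957 (0.18), LOC100037560 (0.18) and LOC100037518 (0.19), and 4 probe sets lay within 0.2. These 3 differed by -1.01, -1.16 and -1.45 (limma, adjusted p = 0.407, 0.430 and 0.370), and in each of them AC Domain replicate 2 was the brightest array, as for ATI. The directions of these genes and the shared brightest array largely follow from their choice by distance over the same arrays. With 4 arrays many probe sets share a pattern, and a short distance is a description only.

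**Figure D4:**
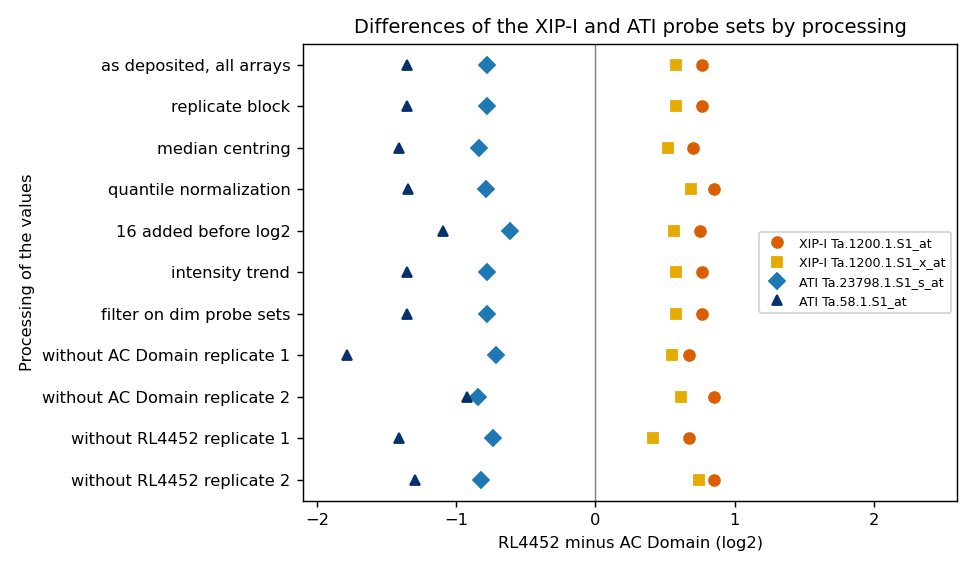
Genotype difference in log2 intensity (horizontal axis, RL4452 minus AC Domain) of 4 probe sets under 11 ways of processing the values (vertical axis), from the deposited values with all arrays to the omission of each array in turn. Orange and yellow points are XIP-I and blue points ATI. The XIP-I differences lie between 0.42 and 0.86 and the ATI differences between -1.78 and -0.61. Each kept its side of 0, which only median centring and quantile normalization could have changed, as these arrays do not overlap between genotypes.

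Some other properties of the arrays also differed, either between genotypes or between single arrays. The control for 18S rRNA read 2586 and 1914 in AC Domain and 191 and 432 in RL4452. The poly(A) spike controls, added before labelling, had mean log2 intensities of 8.56 and 8.01 in AC Domain and 7.19 and 8.14 in RL4452, lowest on RL4452 replicate 1. The wash record of RL4452 replicate 2 was marked as aborted. Without that array, XIP-I differed by 0.85 and 0.75 and ATI by -1.29 and -0.82, in the order in which their probe sets are given above. Of the seed markers, the 4 starch synthesis probe sets had a summed intensity of 2238 to 2304 in AC Domain and 3031 to 3679 in RL4452. Among them 1 was called (GBSS-I), against 0.800% of all wheat probe sets, and 3 were above the negative control level on all arrays. The members did not move together, as 3 were higher in RL4452 (58.4% of all wheat probe sets) and 1 lower, with differences from -0.21 to 2.38. The 17 storage protein probe sets, of which 4 were above that level on all arrays and 10 below it on all, summed to 1285 to 1434 and 1604 to 1661. Of these, 14 were higher in RL4452 and 3 lower, where 58.4% of all wheat probe sets were higher. The 28 rbcl probe sets of green tissue, with 6 above and 18 below on all arrays, summed to 50839 to 52631 and 48515 to 49267. Here 10 were higher in RL4452 and 18 lower, again beside 58.4% of all wheat probe sets higher. The sums for 10 probe sets of the maturing embryo overlapped (211 to 229 against 219 to 301), with 6 below the negative control level on all arrays. Those for 4 of the anther also overlapped (74.9 to 87.7 against 82.6 to 88.7), with 3 below it. So did those for 8 of thionins and lipid transfer proteins (9621 to 13369 against 5741 to 14899), with 3 below it. The part of these differences in the results for XIP-I and ATI was not tested.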

How the data were processed

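Seed RNA of 2 genotypes was profiled on 4 arrays. The authors deposited RMA intensities, according to the submitters' processing notes, and the deposited intensities are linear, from 4.74 to 25900. The set of arrays that RMA normalised jointly is not stated in these sources. On each array, 58.0% to 60.1% of the wheat probe sets exceeded the negative control level. Control probe sets (175) were left out of the tests.

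The intensities were log2-transformed and fitted with limma 3.58.1 in R 4.3.3 (lmFit, eBayes) with genotype as factor, on all 61115 wheat probe sets, two-sided and adjusted by Benjamini-Hochberg. With 2 residual degrees of freedom and 2.97 from the prior, precision was limited by the number of arrays. The script was tested on simulated data with noise drawn independently for each array. That test did not cover deviations shared between arrays. Arrays with the same replicate number shared a project in the run files, and their deviations from the genotype means correlated (r = 0.398 over probe sets, which are not independent). The fit with the replicate number as a block is an alternative, as are omission of each array, median centring, quantile normalization, an added constant of 16, an intensity trend and a filter on dim probe sets.

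Names came from the platform annotation, which gave 1273 probe sets 1 gene each and 59842 none, joined by gene identifier to the RefSeq genes of the assembly IWGSC CS RefSeq v2.1. Neither sequences nor coordinates were used. All 9 member probe sets were named, the 4 of smallest p from each further list, and the 3 genes nearest in pattern to each of ATI and XIP-I. Members and lists were chosen with earlier results of these data known.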

Additional observations from a re-analysis of the deposited data

How the results depend on the processing

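The differences of both XIP-I probe sets, of Ta.58.1.S1_at and Ta.23798.1.S1_s_at of ATI and of LOC543281 kept their direction in all 10 alternatives. Most of these could not have changed it. The block, the intensity trend and the filter leave a difference as it is. Omitting 1 array or adding 16 cannot reverse a probe set whose arrays do not overlap between genotypes. Only median centring and quantile normalization could have done so. With limma 0 of the 9 inhibitor probe sets passed the threshold in any alternative that kept all 4 arrays. With the replicate block 667 probe sets passed among all wheat probe sets, against 489 without it, and the block changed no call among the inhibitors. The count over all wheat probe sets was 143 with 16 added, and 0 to 1031 when 1 array was left out: 0 without AC Domain replicate 1 or 2 (2999 and 2441 at an unadjusted p under 0.05 with limma), 1031 without RL4452 replicate 1 and 998 without RL4452 replicate 2. When 1 array was left out, 3 to 7 of the 9 inhibitor probe sets were higher in RL4452, against 53.8% to 59.2% of all wheat probe sets. The filter on dim probe sets dropped 4 of the 9. Of the rest 2 were higher in RL4452, against 53.2% of all wheat probe sets kept, and the median of the ATI probe sets was -1.07. With 16 added that median was -0.61, against -0.78 as deposited. The probe sets that changed direction had small differences. When 1 array was left out they ran from -0.012 to 0.039 and from -0.37 to 0.047 for the WSZ1b probe sets Ta.1314.1.S1_at and Ta.1314.1.S1_s_at, from -0.099 to 0.036 for WMAI-1, from -0.11 to 0.064 for Ta.23798.1.S1_at of ATI, from -0.13 to 0.065 for WSZ2b, from -0.18 to 0.25 for WSZ2a and from -0.11 to 0.45 for BMY1. After quantile normalization and median centring, Ta.1314.1.S1_at had -0.076 and -0.046 and WSZ2a had -0.039 and -0.024. Where no construction of the alternative shows it, the cause was not tested. Signal over background limits the serpins and Ta.23798.1.S1_at, which lay below the negative control level.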
